A study of Mus musculus with 3 samples.

Results

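The cells described here were the day 14 cells of an in vitro Leydig differentiation culture that carried mRNA for Cyp17a1, the enzyme that turns C21 steroids into androgens. They were chosen by 2 measured values: at least 2 UMIs (unique molecular identifiers, each counting 1 captured mRNA) of Cyp17a1, and a summed count of Cyp11a1 and Hsd3b1 of at least 10 per 10000 UMIs of the cell. The rule took 140 of the 973 day 14 cells (14.4%, exact 95% interval 12.2 to 16.8%), out of 6124 cells in the 3 libraries, and these 140 are called the members. The same rule found 4 of 2171 cells on day 7 (0.184%) and 0 of 2980 cells on day 4, which allows a share of up to 0.101%.

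The study asked whether stromal cells of the adult mouse testis can be turned into Leydig cells in culture. Testes of C57BL/6 males aged 8 to 12 weeks were dissociated, sorted for Sca1+/cKit- cells and plated on Matrigel, first in serum, then in an expansion medium with PdgfAA, PdgfBB, Fgf2 and SAG (a Smoothened agonist that turns on Hedgehog signalling), and last in a differentiation medium that held the same 4 agents with LiCl2 and DAPT, a gamma-secretase inhibitor that blocks Notch signalling. Culture cells were profiled by Drop-seq, in which each cell is caught in a droplet with a barcoded bead, with 1 library for each of days 4, 7 and 14. The labels name no genetic change and no number of donor animals, and every library shared the strain, the sort and the media up to its day.

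Leydig cells lie between the seminiferous tubules and make the testosterone of the male. STAR carries cholesterol to the inner mitochondrial membrane, where CYP11A1 cleaves it to pregnenolone with electrons passed on by ferredoxin (Fdx1) and its reductase (Fdxr). HSD3B enzymes, CYP17A1 and a 17-beta-hydroxysteroid dehydrogenase, HSD17B3 in the adult, then lead to testosterone, and luteinising hormone drives the pathway through its receptor, Lhcgr. Adult Leydig cells also secrete INSL3, a peptide hormone that marks the mature cell type, and arise from spindle-shaped interstitial progenitors.

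The 833 other day 14 cells fell into 2 sets that are used for comparison. In 278 cells Cyp11a1 and Hsd3b1 passed the same level but Cyp17a1 had 0 UMIs (229 cells) or 1 UMI (49 cells). These are called the enzyme-positive cells below. In the other 555, called enzyme-low cells, Cyp11a1 and Hsd3b1 stayed under the level, and 5 of them had 2 or more Cyp17a1 UMIs. The members were deeper than the rest, with 880 to 80524 UMIs per cell (median 6057) against medians of 3116 in the enzyme-positive and 3063 in the enzyme-low cells, so that a member had more chance to reach 2 UMIs. The median share of mitochondrial UMIs was 2.99% in members and 2.17% in the other cells.

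Barcodes set a limit on the number of cells. The 973 day 14 barcodes held 601 different runs of first 11 bases: 504 barcodes fell in 132 sets that differ at the last base alone, of which 115 sets held all 4 bases. In Drop-seq, beads that lack a base of their barcode are known to give such sets from 1 cell, and whether they did so here was not tested. Of the 140 members, 50 lay in such sets, as did 162 of the 278 enzyme-positive cells. Among the 19 sets that held a member, 8 held members only, so the others were spread over more than 1 group. With each set summed into 1 cell, the rule took 111 of 601 cells (18.5%, 15.4 to 21.8%), and with sets left out it took 90. After summing, the median depth was 9815 UMIs in members and 7512 in the other cells, a smaller gap than before. No barcode was shared between the days. Since each day is 1 library and its cells are not replicates, no difference below was tested: levels are UMIs per 1000000 UMIs (CPM) summed over the cells of a group, and every interval is an exact 95% interval that covers counting error only.

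The rule genes are given first, as a description. Members held 4450 of the 4560 Cyp17a1 UMIs of day 14 (97.6%) and 23.2% of all its UMIs. Counts per member ran from 2 to 346, or from 0.869 to 239 per 10000 UMIs of the cell with a median of 17.5, so the members spanned a wide range. In 48 members there were 2 to 4 UMIs, in 56 there were 5 to 29, and the 36 members with 30 or more held 80.1% of the members' Cyp17a1. Cyp17a1 lies at chr19:46667165-46673172 on the minus strand of GRCm38. Summed over each whole library, it had 2 UMIs on day 4 (0.158 CPM), 27 on day 7 (2.32 CPM) and 856 CPM at day 14.

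**Figure D1:**
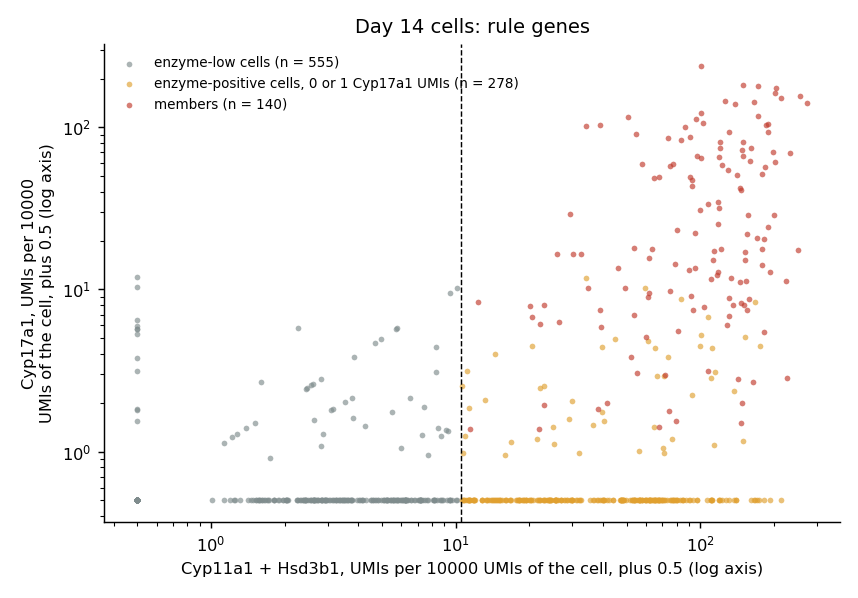
Each point is 1 day 14 cell, placed by its Cyp11a1 plus Hsd3b1 level (x) and its Cyp17a1 level (y), both as UMIs per 10000 UMIs of the cell plus 0.5 on log axes, with the dashed line at the enzyme threshold. The 140 members spread from near the bottom of the y axis to its top, while the 278 enzyme-positive cells lie to the right of the line with 0 or 1 Cyp17a1 UMIs.

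Members also had the higher level of the 2 enzymes that only had to pass a threshold. Cyp11a1, the cholesterol side-chain cleavage enzyme, had a median of 60.3 per 10000 UMIs in members, 22.2 in enzyme-positive cells and 0 in enzyme-low cells. Hsd3b1, the 3-beta-hydroxysteroid dehydrogenase of the pathway, had medians of 45.0, 15.1 and 0. At the edge of the rule, the 23 members with exactly 2 Cyp17a1 UMIs had a median of 79.2 enzyme UMIs per 10000 and 2331 CPM of Insl3, and the 49 enzyme-positive cells with exactly 1 had a median of 55.7 and 2954 CPM of Insl3. The 2 members with the lowest enzyme level had 10.95 and 11.8 per 10000, and the 5 enzyme-low cells that held 2 or more Cyp17a1 UMIs had 1.10 to 9.65.

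Free RNA in the droplets can give a cell UMIs of genes that it does not express, so low counts outside the members were read beside other measures. The enzyme-low cells had 22.7 CPM of Cyp17a1 and the enzyme-positive cells 35.0, against 3607 in members, and Cyp17a1 UMIs stood at 1.07 per Insl3 UMI in members, 0.0140 in enzyme-positive cells and 0.0317 in enzyme-low cells. In 3 day 14 cells with at least 10 UMIs of the macrophage gene Lyz2, which should make no steroid, 27152 UMIs held 1 Cyp17a1 UMI, 3 of Cyp11a1, 2 of Star and 0 of Insl3, Hsd3b1, Lhcgr and Ptgds. Thinning each cell to 2000 UMIs left out 23 members, 83 enzyme-positive and 189 enzyme-low cells, and Cyp17a1 was then seen in 80.3% of members and in 8.72% and 3.55% of the other sets. The rule itself fixes these gaps in Cyp17a1 between members and enzyme-positive cells, so they are a description only.

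The label was checked against Insl3, the marker that the rule did not use. Insl3 was seen in 138 of 140 members, with a lowest value of 0, a median of 30.4 and a highest of 141 per 10000 UMIs. The enzyme-positive cells had a median of 21.6 and the enzyme-low cells 1.54, and the ranges of the 3 sets overlapped. Summed, Insl3 stood at 3366 CPM (3265 to 3470) in members, 2493 (2411 to 2577) in enzyme-positive and 716 (684 to 748) in enzyme-low cells. The ratio of members to all other day 14 cells was 2.54 (2.44 to 2.65) and to enzyme-positive cells 1.35 (1.29 to 1.41). Insl3 was thus not particular to the cells with Cyp17a1: members held 43.4% of the day 14 Insl3, and after thinning it was seen in 94.0% of members and 93.3% of enzyme-positive cells. On day 4 and day 7 it stood at 3.39 and 7.83 CPM.

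Macrophage and endothelial markers had lower sums in members than in the other day 14 cells, while Sertoli and germ cell sums had overlapping intervals. Of 10 macrophage markers, 6 had no UMI (C1qa, C1qb, C1qc, Tyrobp, Adgre1 and Ptprc), and the list summed to 8.92 CPM with a range of 0 to 2.21 per 10000 UMIs over cells, against 311 CPM and a range of 0 to 459 in the other day 14 cells, where 1 cell held 86.9% of it. Sertoli markers summed to 45.4 CPM (34.3 to 58.9) in members and 54.5 CPM (47.6 to 62.2) in the other cells, with Amh, Rhox5 and Dhh at 0 in both. Enzyme-positive cells had 41.5 CPM of them. Endothelial markers summed to 48.6 CPM in members, with Pecam1, Emcn, Kdr, Tie1 and Ptprb at 0, against 114 CPM in the other cells. Germ cell markers summed to 35.7 CPM (25.9 to 47.9) in members and 42.8 CPM (36.7 to 49.6) in the other cells. In enzyme-positive cells the germ cell sum was 39.3 CPM. The adrenal cortex, the other steroid tissue, makes corticoids with Cyp21a1 and Cyp11b1: members had 0 and 1 UMI of these, and 0 of Mc2r, the ACTH receptor. The adrenal list as a whole stood higher in members, at 259 CPM (231 to 289) against 149 CPM in the other cells and 242 CPM (217 to 270) in enzyme-positive cells, and 318 of its 319 UMIs in members were of Mrap, an accessory protein of the ACTH receptor.

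For counts over gene lists, 10373 genes with at least 20 day 14 UMIs were compared, rule genes left out, with 1 CPM added to each level. Of these, 238 (2.29%) were at least 2-fold higher in members than in the other day 14 cells and 697 (6.72%) at least 2-fold lower. Against the enzyme-positive cells alone, 346 (3.34%) were at least 2-fold higher and 327 (3.15%) at least 2-fold lower. Many of the higher genes were sparse: of the 346, 46 had 50% or more of the members' UMIs in a single cell and 130 were seen in at least 14 members, and of the 238 these numbers were 3 and 178. The median log2 ratio over all genes was -0.04 and 0.01 in these comparisons.

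The other enzymes of the steroid pathway split into those that were higher with Cyp17a1 and those that were not. Of 8 such genes that had enough UMIs, 3 were at least 2-fold higher in members than in the other cells, 0 were lower, and the median log2 ratio was 0.75. Hsd17b3, which makes testosterone from androstenedione in the adult, stood at 33.2 CPM (23.8 to 45.1) in members and 14.3 CPM (8.73 to 22.1) in enzyme-positive cells, a ratio of 2.32 (1.33 to 4.19). It had 41 UMIs in 26 members, so most members showed none, and among cells of 3000 to 10000 UMIs the ratio was 1.196. Hsd17b7, which acts in cholesterol synthesis and on estrone, stood at 328, 216 and 99.2 CPM in members, enzyme-positive and enzyme-low cells, and Hsd17b12, of fatty acid elongation and estrone reduction, at 543, 425 and 229 CPM. The third gene of the count, Hsd3b6, the adult isoform whose sequence is close to Hsd3b1, had 43 of its 44 UMIs in 1 member, so the value belongs to a single cell. Srd5a3 and Hsd11b1 were lower in members than in the other cells, at 18.6 against 32.3 CPM and at 51.9 against 81.9 CPM. Hsd17b1 had 2 UMIs in members, and Cyp19a1, which makes estrogens, and Akr1c18 had 0. Against enzyme-positive cells the median of the 8 genes was 0.43, but it was -0.39 among cells of 3000 to 10000 UMIs and -0.56 after thinning. The list median was also -0.19 over genes of at least 100 UMIs and -0.029 with Cyp17a1 at 3 or more per 10000. Its sign thus turned with the setting, and the cause was not tested.

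Star did not follow Cyp17a1. It stood at 1270 CPM (1208 to 1335) in members and 1449 (1387 to 1514) in enzyme-positive cells, a ratio of 0.876 (0.820 to 0.936), and at 666 CPM in enzyme-low cells. One member held 15.4% of the members' Star, and 26 of the 140 had none. Per cell the median was 7.52 per 10000 UMIs in members and 11.7 in enzyme-positive cells, and after thinning Star was seen in 61.5% and 80.5% of them. Against all other day 14 cells the ratio of Star was 1.36 over all cells. Among cells of 3000 to 10000 UMIs it turned to 0.852, with members at 738 CPM.

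The electron donors of the mitochondrial step were higher in members than in the other cells, and Cyb5a, a partner of CYP17A1, was lower. Fdx1 stood at 1910 CPM (1833 to 1988) in members, 1166 (1110 to 1224) in enzyme-positive and 289 (269 to 310) in enzyme-low cells. Its range over members was 0 to 63.9 per 10000 UMIs with a median of 14.97, against 8.54 in enzyme-positive cells. Fdxr stood at 494, 372 and 175 CPM. Cytochrome b5 (Cyb5a), which helps CYP17A1 cleave the side chain of C21 steroids, was lower in members, at 587 CPM against 857 in enzyme-positive cells, a ratio of 0.685 (0.624 to 0.752). Por, which passes electrons to CYP17A1, was not lower. It had 38.1 CPM in members, 25.7 CPM in enzyme-positive and 23.8 CPM in enzyme-low cells. The interval of the ratio of members to enzyme-positive cells included 1 (0.939 to 2.35). Of the 7 genes listed as electron partners, 2 were at least 2-fold higher than in the other day 14 cells (median log2 ratio 0.56), and 0 of 7 against enzyme-positive cells.

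**Figure D2:**
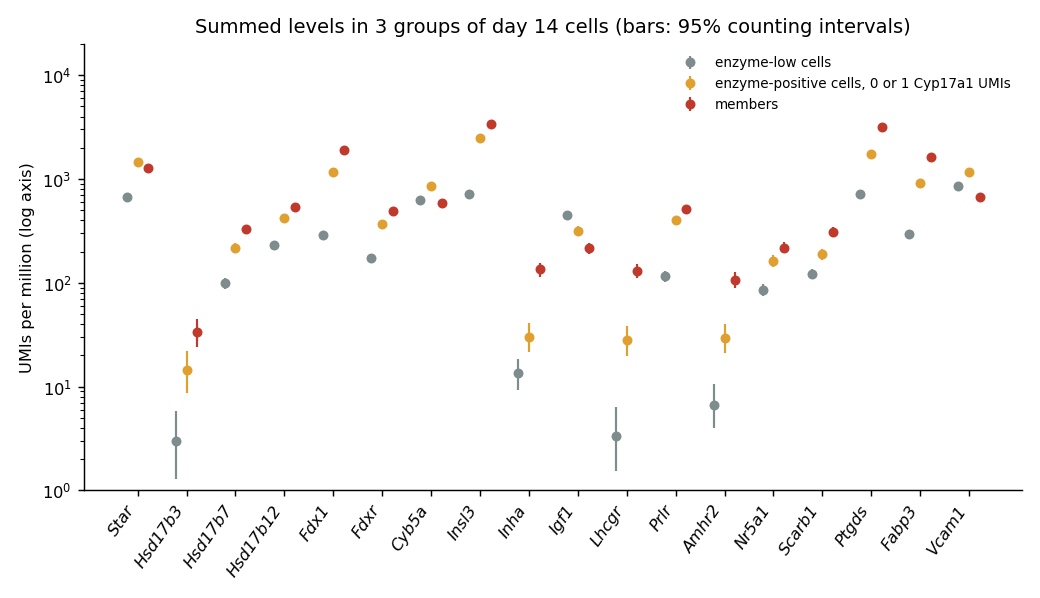
Summed level of 18 genes, in CPM on a log axis, in 555 enzyme-low cells, 278 enzyme-positive cells with 0 or 1 Cyp17a1 UMIs and 140 members, with 95% counting intervals. Lhcgr goes from 3.34 to 27.9 to 130 CPM across the 3 sets, while Star, Cyb5a and Vcam1 are lower in members than in enzyme-positive cells and Igf1 is lowest in members.

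Among hormones and receptors, the largest ratios of members to enzyme-positive cells were those of the receptor for luteinising hormone, inhibin alpha and the receptor for anti-Mullerian hormone. Lhcgr had 160 UMIs in 48 members, 130 CPM (110 to 151), against 27.9 CPM (19.8 to 38.1) in enzyme-positive cells, a ratio of 4.65 (3.26 to 6.78). Members held 76.9% of all Lhcgr UMIs of day 14, and the enzyme-low cells stood at 3.34 CPM. After thinning, Lhcgr was seen in 17.1% of members, 6.15% of enzyme-positive and 0.273% of enzyme-low cells, so in most members it was below detection at this depth.

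Inha, the alpha subunit of inhibin, stood at 135 CPM (115 to 157) in members and 30.02 CPM (21.6 to 40.6) in enzyme-positive cells. One member held 33.1% of it, and without that cell members had 91.3 CPM. Amhr2 stood at 107 CPM (89.5 to 127) in members and 29.3 CPM (21.0 to 39.8) in enzyme-positive cells, a ratio of 3.65 (2.55 to 5.32), and was seen in 58 members. Prlr, the prolactin receptor, was at 517, 400 and 115 CPM in members, enzyme-positive and enzyme-low cells, so most of its difference lay between the enzyme sets. Igf1, a growth factor that Leydig cells respond to, went the other way, at 215, 319 and 450 CPM. Of 14 genes listed as hormones and receptors, 6 were at least 2-fold higher than in the other day 14 cells (Insl3, Inha, Lhcgr, Prlr, Esr1 and Amhr2) and 3 at least 2-fold lower (Adcyap1r1, Ednra and Avpr1a), with a median log2 ratio of 0.23. Against enzyme-positive cells 3 were higher and Avpr1a, a vasopressin receptor with 1 UMI in members, was lower.

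**Figure D3:**
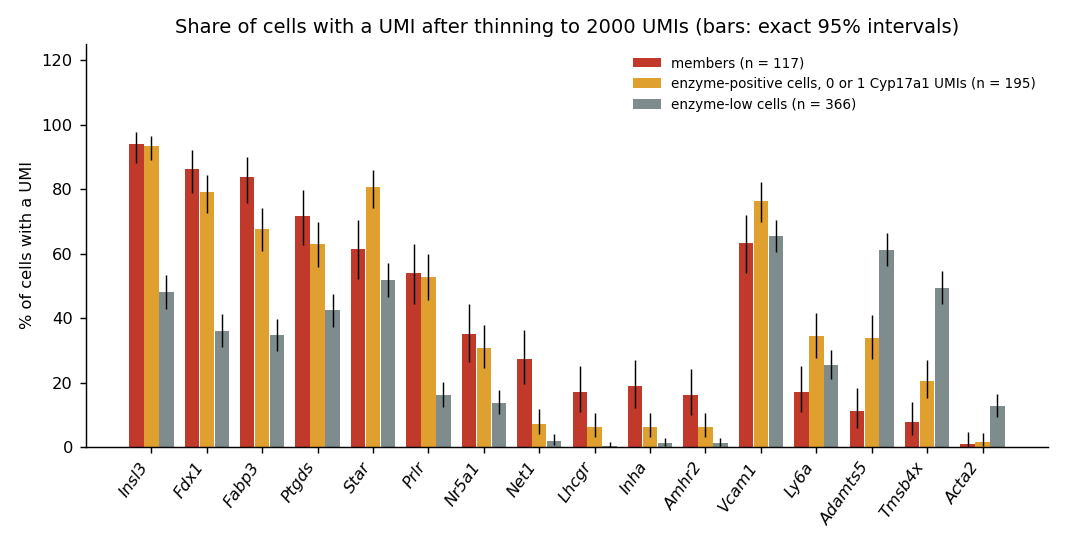
Percent of cells with at least 1 UMI of each of 16 genes after every cell was thinned to 2000 UMIs, in 117 members, 195 enzyme-positive and 366 enzyme-low cells, with exact 95% intervals. Insl3 is seen in 94.0%, 93.3% and 48.1% of them and Lhcgr in 17.1%, 6.15% and 0.273%, while Star is seen in fewer members (61.5%) than enzyme-positive cells (80.5%).

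Lists of genes that mark the adult and the fetal wave of Leydig cells were read next. Of 6 adult genes with enough UMIs, 4 were at least 2-fold higher in members than in the other day 14 cells, and their median log2 ratio was 1.61. Against enzyme-positive cells 2 of the 6 were, Hsd3b6 and Hsd17b3, with a median of 0.83. Hsd3b6 counts in both although its value belongs to 1 cell, and among cells of 3000 to 10000 UMIs its ratio to the other cells was 0.451. Ptgds, a prostaglandin D synthase, stood at 3159, 1748 and 713 CPM in members, enzyme-positive and enzyme-low cells. It was uneven, from 0 to 390 per 10000 UMIs over members with a median of 7.61, and 1 member held 15.9% of it. Fabp3, a carrier of fatty acids, was even by comparison, seen in 136 of 140 members at 1623 CPM, against 922 and 298 CPM in the other sets. Vcam1, an adhesion protein on the same list, was lower in members, at 674 CPM against 1169 CPM in enzyme-positive cells, a ratio of 0.576 (0.530 to 0.627). Sult1e1, an estrogen sulfotransferase, had 10 UMIs in 2 members, 7 of them in 1 cell, and 0 in all other day 14 cells, which allows up to 0.733 CPM. Of the fetal list, only Thbs2 and Cyp26b1 had enough UMIs: Cyp26b1, which degrades retinoic acid, stood at 211 CPM in members and 159 CPM in the other cells, Thbs2 at 18.6 and 23.5 CPM.

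The transcription factors of Leydig cells were present in members and in enzyme-positive cells. Nr5a1 (SF1), the nuclear receptor that turns on most steroid enzyme genes, stood at 217 CPM (192 to 245) in members, 161 (140 to 183) in enzyme-positive and 85.5 CPM in enzyme-low cells. Gata4 stood at 47.8, 41.5 and 36.4 CPM and Gata6 at 33.2, 35.0 and 11.9 CPM in the 3 sets, and the ratio of Gata6 in members to enzyme-positive cells was 0.949 (0.611 to 1.47). Factors of the interstitial progenitor were low: Tcf21 had 6 UMIs in members (4.86 CPM) against 24.2 CPM in enzyme-low cells, and Nr2f2 (COUP-TFII) stood at 43.8 against 96.6 CPM. Of 13 factors tested, 0 were at least 2-fold higher than in the other day 14 cells and Tcf21 alone was lower. Against enzyme-positive cells 0 were at least 2-fold lower.

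Letters that SF1 binds were sought in the promoters, since SF1 is the shared regulator of this pathway. The half-site AAGGTCA or AAGGCCA, on either strand, lies in 9.09% of the 32851 RefSeq windows of 250 bases before a start. Of the 14 steroid pathway genes and Insl3, 12 had a window in the table (Cyp17a1, Star and Hsd17b1 had none) and 0 of these 12 held either form. Among the receptors and hormones above, looked up after their values were seen, Amhr2 held 1 copy, 231 bases before its start, and Lhcgr held 0. The Inha window held 0 as well, but it is chr1:75507359-75507608, inside the gene at chr1:75507077-75510366 on the plus strand. It thus does not cover the bases before that gene start. The windows of Amhr2 and Insl3 are printed 5′ to 3′ to show the 1 match beside the marker gene, with the half-site in capitals. The Amhr2 window is chr15:102445117-102445366 and the Insl3 window chr8:71689002-71689251, both on the plus strand of GRCm38.p6. A match of letters is a description of the sequence and says nothing of binding in these cells. Forms that differ from these letters at any base were not sought, so a window without a match may still hold sites for SF1.
Amhr2: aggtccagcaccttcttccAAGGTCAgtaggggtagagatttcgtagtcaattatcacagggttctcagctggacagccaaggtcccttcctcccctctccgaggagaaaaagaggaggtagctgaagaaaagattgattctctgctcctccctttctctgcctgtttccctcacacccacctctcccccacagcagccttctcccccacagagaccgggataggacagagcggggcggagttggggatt
Insl3: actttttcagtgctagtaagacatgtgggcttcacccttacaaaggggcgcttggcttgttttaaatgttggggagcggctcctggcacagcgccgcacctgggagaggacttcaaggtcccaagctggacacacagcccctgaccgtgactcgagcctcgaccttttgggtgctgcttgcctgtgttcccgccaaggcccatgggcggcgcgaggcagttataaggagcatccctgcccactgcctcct

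Genes of cholesterol synthesis and the lipoprotein receptor Scarb1 had higher mRNA levels in members than in the other day 14 cells, and the uptake list as a whole did not. All 20 listed genes of cholesterol synthesis had a higher level in members than in the other day 14 cells. Their median log2 ratio was 0.74, but only Tm7sf2 and Dhcr7, which act in the late steps, were at least 2-fold higher. Against enzyme-positive cells the median was 0.20 and 0 of 20 passed 2-fold, so most of this difference lay between cells with and without the enzymes. Cyp51, the sterol demethylase, was at 687 CPM in members and 823 CPM in enzyme-positive cells. Scarb1, the receptor for high-density lipoprotein, was the only one of 15 uptake, storage and transfer genes that was at least 2-fold higher than in the other cells, at 310 against 144 CPM, and it was at 189 CPM in enzyme-positive cells. Apoe stood at 1814 CPM in members and 2263 CPM in the other cells, Npc2 at 3085 and 3240 CPM, and the list's median log2 ratio was -0.07.

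Of the glutathione transferases, Gsta2 and Gsta4 of the alpha class went with the enzymes and not with Cyp17a1. Gsta2 stood at 1957, 1961 and 449 CPM in members, enzyme-positive and enzyme-low cells, and Gsta4 at 981, 995 and 277 CPM. Gstm1 was lower in members, at 2418 CPM against 3812 CPM in enzyme-positive cells. Over the 14 transferases tested, log2 ratios to enzyme-positive cells ran from -0.66 to 0.65, with a median of -0.08. Reads of these near-identical families may have been split between members by the counting, so single values are uncertain. Genes of peroxide defence, of the endoplasmic reticulum and of the lysosome were close to the background: 0 of 14, 0 of 12 and 0 of 19 were at least 2-fold higher than in the other day 14 cells, and Gpx3 alone was at least 2-fold lower, at 400 against 816 CPM. Nuclear and mitochondrial genes of oxidative phosphorylation had median log2 ratios of 0.18 (21 genes) and 0.41 (8 genes), the latter beside a higher share of mitochondrial UMIs in members, whose part in the result was not tested.

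**Figure D4:**
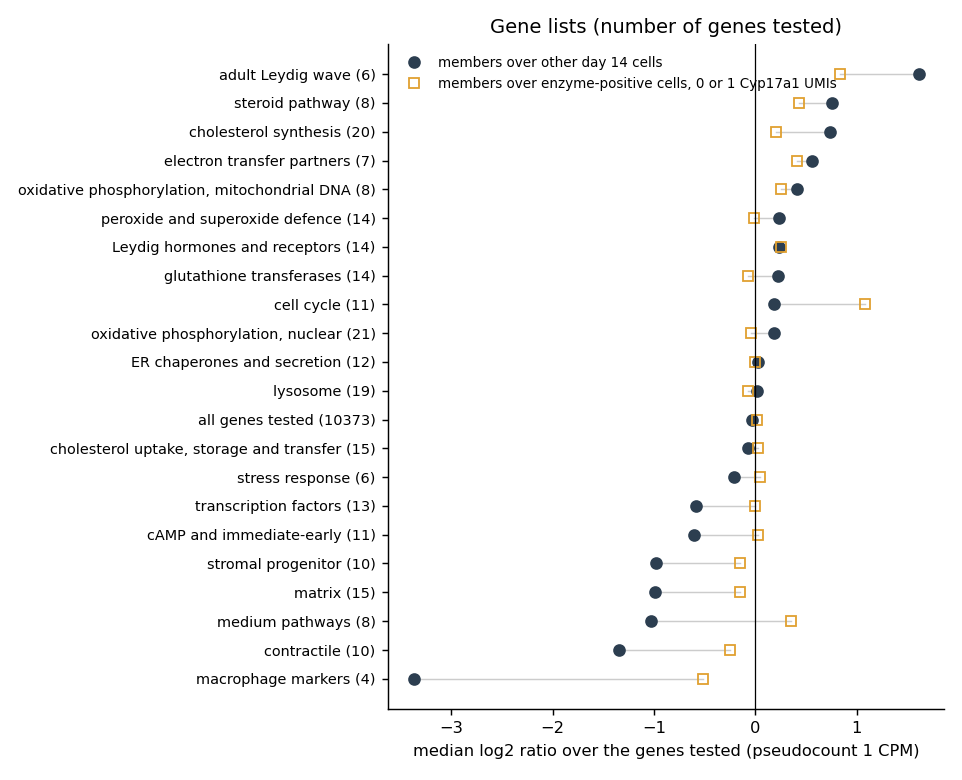
Median log2 ratio of each gene list (pseudocount 1 CPM, number of genes tested in brackets), for members over all 833 other day 14 cells (filled points) and over the 278 enzyme-positive cells (open squares). Against all others, medians run from -3.37 (macrophage markers) to 1.61 (adult Leydig wave), and against enzyme-positive cells most lists lie close to the median of all genes, 0.01; the cell cycle median of 1.08 rests on 1 member.

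Stromal, contractile and matrix genes were lower in members than in the other day 14 cells. The list medians against enzyme-positive cells lay near 0, but the progenitor list had a lower sum in members. Of 10 contractile genes, 9 were at least 2-fold lower, with a median log2 ratio of -1.35. Acta2, smooth muscle actin, had 4 UMIs in members (3.24 CPM), 6.43 CPM in enzyme-positive and 187 CPM in enzyme-low cells. Of 15 matrix genes 7 were at least 2-fold lower, Dcn at 367 against 1144 CPM, while Col1a2 stood at 1783 CPM in members, 1778 in enzyme-positive and 4382 in enzyme-low cells. Of 10 progenitor genes 5 were at least 2-fold lower, and Thy1 was higher with 89.5% of its UMIs in 1 member. Against enzyme-positive cells the medians of the 3 lists were -0.25, -0.15 and -0.15. Summed over its genes, the progenitor list stood at 1568 CPM (1499 to 1640) in members and 2720 CPM (2634.5 to 2808) in enzyme-positive cells. Its medians per cell were 8.24 and 21.8 per 10000 UMIs, and enzyme-low cells had a sum of 3018 CPM. The contractile sum was 1222 CPM in members and 1353 CPM in enzyme-positive cells. In these lists Myl9, Lum and Ly6a were at least 2-fold lower than in enzyme-positive cells, and Thy1 and Tagln, the latter with 2 UMIs against 0, were at least 2-fold higher. Ly6a, which encodes the Sca1 protein on which the starting cells were sorted, stood at 151 CPM (130 to 174) in members. Enzyme-positive cells had 560 CPM (522 to 601) and enzyme-low cells 349 CPM. The ratio of members to enzyme-positive cells was 0.269 (0.228 to 0.316). Among enzyme-positive cells with 0 Cyp17a1 UMIs, 1 cell held 29.5% of the Ly6a. In cells of 3000 to 10000 UMIs the ratio was 0.391, with members at 240 CPM.

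Targets of the pathways that the medium acts on were sparse. Hes1, a Notch target, had 5 UMIs in members (4.05 CPM, 1.32 to 9.46), against 29.3 CPM in enzyme-positive and 42.0 CPM in enzyme-low cells. Heyl, another Notch target, had 0 UMIs in members, which allows up to 2.43 CPM, and 2.86 CPM in enzyme-positive cells. The Hedgehog target Ptch1 stood at 10.5 CPM in members and at 38.6 CPM in enzyme-low cells. Enzyme-positive cells had 6.43 CPM, and the interval of the ratio of members to these included 1 (0.648 to 4.34). Gli1, another Hedgehog target, had 6 UMIs in members (4.86 CPM), 0 in enzyme-positive cells, which allows up to 2.14 CPM, and 11.9 CPM in enzyme-low cells. Tcf7, a factor of Wnt signalling, had 16 UMIs in members, at 13.0 CPM against 4.64 CPM in the other cells.

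Genes of the cell cycle showed how much 1 cell can weigh. Of 11 listed genes, 6 were at least 2-fold higher in members than in enzyme-positive cells, among them Mki67, Top2a and Cdk1, with a median log2 ratio of 1.08. One member of 18378 UMIs held 157 of the 270 cell cycle UMIs of all members, together with 24 UMIs of Cyp17a1 and 90 of Insl3. Without it the other 139 members had 93.0 CPM (76.6 to 112) of these genes, against 111 CPM (94.7 to 130) in enzyme-positive and 262 CPM in enzyme-low cells. The median log2 ratio to enzyme-positive cells then turned to -1.26, with 0 genes at least 2-fold higher and 6 at least 2-fold lower.

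Genes outside the lists were named by size alone. Beside the rule genes, Lhcgr, Inha and Amhr2, the highest ratios to the other day 14 cells belonged to AU021092, Klk1b24, Ly6k and Net1. Net1, a guanine nucleotide exchange factor, was the most widely seen, with 160 UMIs in 61 members, at 130 CPM against 34.3 CPM in enzyme-positive cells. Klk1b24, a kallikrein protease with near-identical relatives, stood at 113, 20.7 and 10.0 CPM in members, enzyme-positive and enzyme-low cells, and AU021092, a gene known by its sequence name, at 158, 33.6 and 10.8 CPM. Ly6k had 36.6% of its UMIs in 1 member and was lower in members than in the other cells, at 29.1 against 55.8 CPM, among cells of 3000 to 10000 UMIs.

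The lowest ratios to the other day 14 cells belonged to Lyz2, Ctgf, Acta2, Ckb, Fgl2, Tmsb4x, Col15a1, Thbd, Adamts5 and Ncam1. Each of these was highest in the enzyme-low cells among the 3 sets. The 3 cells with at least 10 Lyz2 UMIs held 1028 of them, so the rank of Lyz2 rests mostly on few cells. Ctgf, a matricellular protein, stood at 37.3, 66.5 and 762 CPM in members, enzyme-positive and enzyme-low cells, and Tmsb4x, which binds actin monomers, at 76.2, 122 and 591 CPM. Against enzyme-positive cells the lowest were Ccl2, Aspn, Ly6a, Serpina3m and Adamts5. Ccl2, a chemokine that draws monocytes, stood at 14.6 CPM (8.65 to 23.1) in members and 100 CPM (84.2 to 118) in enzyme-positive cells, and Aspn, a small proteoglycan of the matrix, at 25.1 and 132 CPM. Serpina3m, of a family of near-identical protease inhibitors, stood at 72.1 and 267 CPM.

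Members themselves were then set in order of their Cyp17a1 level, with limits chosen after the values were seen: under 5 per 10000 UMIs (19 cells, median depth 15158), 5 to 30 (62 cells, 4074) and 30 or more (59 cells, 6088). Insl3 stood at 2326 CPM (2170 to 2490) in the first, 3180 CPM (3017 to 3350) in the second and 4408 CPM (4213 to 4610) in the last of these. Lhcgr stood at 31.0, 101 and 240 CPM, Amhr2 at 22.6, 101 and 182 CPM and Fabp3 at 908, 1377 and 2460 CPM. All 4 genes were thus highest in the cells with most Cyp17a1, and in the lowest bin they were near the level of enzyme-positive cells. Not every gene that was higher in members did so. Net1 rose, at 78.9, 128 and 173 CPM, but Nr5a1 (211, 229 and 210 CPM) and Scarb1 (200, 420 and 288 CPM) did not rise at each step.

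Igf1 fell over the same order, at 391.8, 189 and 96.8 CPM. One cell held 41.0% of it in the first bin, and with the top cell of each bin left out the values were 299, 162 and 72.4 CPM. Vcam1 stood at 744, 743 and 544 CPM, lower in the last bin alone. Star stood at 1474, 1249 and 1125 CPM, but 1 cell held 43.4% of it in the middle bin, and with the top cell of each bin left out the values were 1213, 816 and 994 CPM. Because the bin with least Cyp17a1 held the deepest cells, the order was read again among cells of 3000 to 10000 UMIs, where 23 members had 5 to 30 and 25 had 30 or more. Insl3 stood there at 3618 and 4214 CPM, Lhcgr at 157 and 233, Fabp3 at 1412 and 2981, Igf1 at 223 and 69.2 and Star at 933 and 547 CPM, the same order for each of these 5 genes. The 4 members of this window with under 5 had 3672 CPM of Insl3, above the middle bin, and 208 CPM of Igf1, below it, so the lowest step did not hold there for either gene. Ptgds rests on few cells in this order: 1 cell held 44.5% of it in the middle bin, which fell from 3137 to 1823 CPM without that cell.

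**Figure D5:**
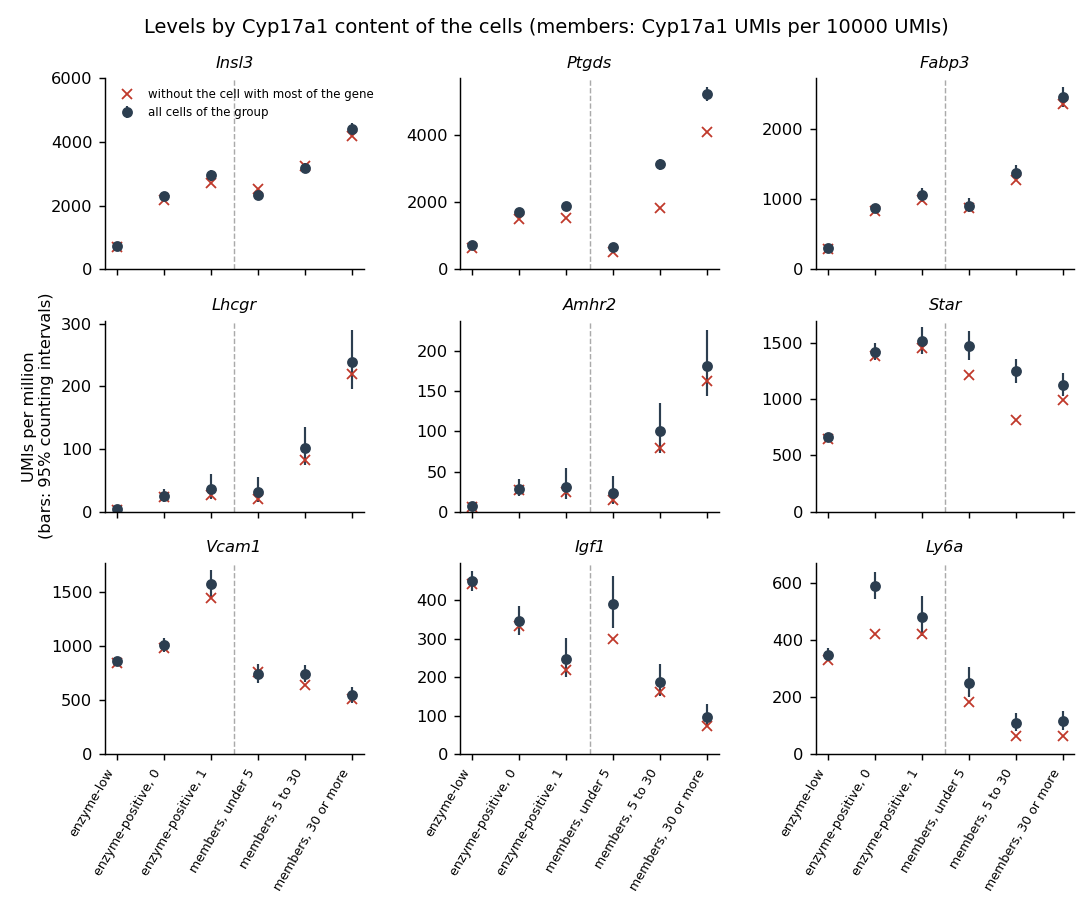
Level of 9 genes, in CPM with 95% counting intervals, in enzyme-low cells, enzyme-positive cells with 0 or 1 Cyp17a1 UMIs, and members with under 5, 5 to 30 and 30 or more Cyp17a1 UMIs per 10000 (right of the dashed line); crosses leave out the cell that holds most of the gene. Lhcgr goes from 31.0 to 101 to 240 CPM over the members and Igf1 from 391.8 to 189 to 96.8 CPM. By the crosses, Igf1 goes from 299 to 162 to 72.4 CPM.

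The choice of members by Cyp17a1 fixes its own level in them, so the UMIs were also divided at random: the rule was applied to one part of each cell's UMIs, with at least 1 Cyp17a1 UMI there, and levels were read from the other part. This took 146 members and 271 enzyme-positive cells. In the part not used, Cyp17a1 stood at 3380 CPM in members and 89.9 CPM in enzyme-positive cells. Both parts came from the same cells, so this gap in Cyp17a1 is a description only and gives no separate support. The ratios to enzyme-positive cells were 1.34 (1.25 to 1.43) for Insl3, 4.21 (2.53 to 7.35) for Lhcgr, 2.82 (1.71 to 4.81) for Amhr2, 1.66 (1.54 to 1.78) for Ptgds and 0.840 (0.763 to 0.924) for Star.

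Depth and shared barcodes moved with membership, so the ratios of members to enzyme-positive cells were read in 2 further ways. Among the 52 members and 108 enzyme-positive cells of 3000 to 10000 UMIs, Lhcgr was 6.30 times as high in members, Amhr2 5.43 times, Inha 4.77 times, Fabp3 2.32 times and Ptgds 2.09 times, while Igf1 had a ratio of 0.386 and Star of 0.490. With the columns of each barcode set summed into 1 cell, the ratio was 1.34 for Insl3, 4.73 for Lhcgr, 4.80 for Inha, 3.62 for Amhr2 and 0.874 for Star. All of these kept the direction given above.

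The 4 cells of day 7 that met the rule came from 2 runs of barcode bases and had 1163 to 4693 UMIs. They held 23 Cyp17a1 UMIs, 13 of Insl3 (1372 CPM, 731 to 2346) and 3 of Lhcgr, too few to be set beside the members of day 14 gene by gene.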

How the data were processed

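Cells of the 3 Drop-seq libraries, 1 per day, were grouped by the culture day in the labels. The counts are whole UMIs per gene and cell, as deposited by the authors in 1 merged table of 24698 genes, from which they had removed cells with under 500 genes or over 10% mitochondrial UMIs. The submitters' processing notes name STAR 2.5.2a, SAMtools 1.2, Picard 2.6.0 and the build GRCm38. Of the columns of that table, 6124 match the 3 libraries by day, and 495 others, which match no sample used here, were left out, as were the separate tables of unfiltered barcodes (1300 barcodes for day 14).

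Counts were read and summed with Python 3.11.15, numpy 2.4.6, scipy 1.17.1 and pandas 2.3.3. Ratios have exact conditional binomial intervals, levels exact Poisson intervals and shares Clopper-Pearson intervals, all at 95%, and a count of 0 was read as allowing 3 counts. Genes needed 20 UMIs in day 14 cells for list counts, and 1 CPM was added before log2 ratios. Shares were read after thinning each cell to 2000 UMIs (seed 1). Doublets were not removed in the values reported. As an alternative, the 6% of cells with the highest Scrublet scores (scanpy 1.11.5) were left out. The summing and ratio steps were tested on simulated data.

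The members, the 26 gene lists and the tests were chosen with earlier results of these data known. Named genes are the rule genes, genes of the lists, and those with the 10 highest and 10 lowest ratios to other day 14 cells (5 each against enzyme-positive cells) at a pseudocount of 10 CPM among genes of at least 100 CPM in the higher group. Other depths, thresholds, filters, pseudocounts, means of cells and barcode sets were tried as alternatives. Promoters are from RefSeq tables of GRCm38.p6. A few genes of the lists are not reported here by name.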

Additional observations from a re-analysis of the deposited data

How the results depend on the processing

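Of 153 alternative values of 9 results, 115 stayed within the counting interval or 1.5 times a count and 38 moved. The number of members (140) was 52 among cells of 3000 to 10000 UMIs and 90 with shared barcode sets left out. The Insl3 ratio to other day 14 cells (2.54) was 2.84 with at least 1 Cyp17a1 UMI, 2.75 with Cyp17a1 at 3 per 10000, 2.67 without doublets, 3.62 in the depth window, 2.74 thinned and 2.95 as a mean of cells. Its ratio to enzyme-positive cells (1.35) was 1.44 with at least 3 Cyp17a1 UMIs, 1.56 with 3 per 10000, 1.46 with the enzymes at 5 per 10000, 1.79 in the window, 1.44 thinned and 1.48 as a mean of cells. The steroid pathway median over other cells (0.75) was 0.091 thinned, and over enzyme-positive cells (0.43) it was -0.39 in the window, -0.56 thinned, -0.19 over genes of at least 100 UMIs and -0.029 with Cyp17a1 at 3 per 10000, so its sign turned in these 4. Genes at least 2-fold higher than in other cells (238) numbered 447 as a mean of cells, 96 with a pseudocount of 10, 742 with no minimum and 99 at 100 UMIs, and against enzyme-positive cells (346) 618, 43, 1111 and 54. Those at least 2-fold lower than in other cells (697) numbered 1129 in the window and, in the same 4 settings, 1205, 189, 1307 and 241. Against enzyme-positive cells (327) they numbered 497 with 3 per 10000, 839 in the window, 595 thinned and then 891, 31, 967 and 55. The cause of these moves was not tested, except that a lower or higher minimum changes how many genes enter. Summing barcode sets and leaving out the deepest member, both chosen after seeing the data, moved none of the 9. Leaving out doublets took 58 cells, 11 of them members. No paired analysis was possible because each day has 1 library. No replicate check of any difference exists.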

Other observations

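A few genes outside the fixed rules were looked at after their values were seen, because they were seen in many members. Hao2, a peroxisomal oxidase of hydroxy acids, stood at 194 CPM (170 to 220) in members, 90.8 CPM (75.7 to 108) in enzyme-positive and 6.32 CPM in enzyme-low cells, with UMIs in 67 of 140 members. On days 4 and 7 it stood at 0.631 and 0.344 CPM. Fads2, a desaturase of polyunsaturated fatty acids, stood at 168 CPM (146 to 192), 65.04 CPM (52.4 to 79.9) and 20.1 CPM in the 3 sets and was seen in 70 members, with 29.1 and 24.4 CPM on days 4 and 7.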
